A study of Mus musculus with 2 samples.

Results

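Among buccal cells sorted for surface CD104, 122 of 15470 kept cells (0.789%, 95% interval 0.655 to 0.941) were chosen. The choice was made on the summed transcripts of the simple-epithelium keratins Krt7 and Krt18. In libraries 1 and 2, 45 and 33 of the chosen cells had a transcript of both. The rule took cells with at least 500 genes detected and at most 10% mitochondrial transcripts, at least 5 Krt7 plus Krt18 transcripts per 10000 of the cell's transcripts, and under 3 of Cd52, a leukocyte surface glycoprotein. Transcripts were counted as unique molecular identifiers (UMIs, tags that mark single captured RNA molecules). Library 1 held 68 such cells of 6907 (0.985%, interval 0.765 to 1.25) and library 2 held 54 of 8563 (0.631%, 0.474 to 0.822). Intervals are exact binomial at 95% and cover counting error only. These cells are called Krt7/Krt18 cells below, and "glandular-like" is a label that rests on transcripts alone.

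The cells came from the cheek lining (buccal mucosa) of C57BL/6 females aged 12 weeks. Tissue of 10 mice was pooled, and cells with a high surface level of CD104, the integrin β4 chain that anchors basal cells to the basement membrane, were collected by flow sorting. The resulting suspension was divided over 2 10x Chromium libraries to look for sub-populations of the basal layer. There were no treated or control groups, and the libraries are technical splits of 1 independent sample, so no significance test was possible and single cells were not treated as replicates.

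The comparison cells were the ordinary basal-like keratinocytes of the same libraries: Krt7 plus Krt18 under 5, Krt14 of at least 40 and Krt4 plus Krt13 under 80 UMIs per 10000. There were 2887 of them in library 1 and 3374 in library 2. Krt14 is the type I keratin of basal cells, and Krt4 and Krt13 form the keratin pair of mucosal cells that have left the basal layer. Krt7/Krt18 cells were somewhat shallower, with a median of 5084.5 UMIs in library 1 and 4252.5 in library 2 against 6515 and 5358 in comparison cells. Their median mitochondrial share was 4.88% and 4.99%, against 4.23% and 4.73%. Barcodes found in both libraries numbered 104 (96 among kept cells), and 0 of them belonged to a Krt7/Krt18 cell. Among barcodes over the mitochondrial limit, 1 in library 1 and 2 in library 2 would otherwise have met the rule.

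Oral mucosa is a stratified epithelium whose basal cells assemble filaments from Krt5 and Krt14. Simple and glandular epithelia use Krt7, Krt8, Krt18 and Krt19 instead, seal their lumen with claudins, and move salt and water through ducts with the sodium pump and its regulatory subunits. Minor salivary glands lie beneath the buccal lining and open onto it through ducts, in which simple and stratified keratins are known to occur together.

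The promoters of Krt7, Krt8 and Krt18 are shown because these genes share a keratin gene cluster on chromosome 15 and were high in the same cells. Each window spans 250 bases before to 50 after the RefSeq transcription start (GRCm38.p6), 5′ to 3′ on the gene's strand, with capitals marking matches to the motifs searched.
Krt7 (chr15:101412153-101412452, plus strand): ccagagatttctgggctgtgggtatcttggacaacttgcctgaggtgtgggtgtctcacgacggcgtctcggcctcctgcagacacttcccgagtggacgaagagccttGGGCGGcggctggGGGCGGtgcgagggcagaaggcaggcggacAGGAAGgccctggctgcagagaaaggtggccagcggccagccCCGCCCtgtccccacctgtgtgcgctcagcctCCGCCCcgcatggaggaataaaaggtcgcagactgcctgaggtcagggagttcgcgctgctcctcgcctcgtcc
Krt8 (chr15:102004293-102004592, minus strand): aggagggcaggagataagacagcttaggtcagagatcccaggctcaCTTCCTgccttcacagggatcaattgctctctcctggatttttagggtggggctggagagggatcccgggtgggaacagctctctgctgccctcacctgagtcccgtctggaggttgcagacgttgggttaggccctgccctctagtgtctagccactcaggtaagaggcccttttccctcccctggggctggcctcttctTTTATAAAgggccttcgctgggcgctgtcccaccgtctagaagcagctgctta
Krt18 (chr15:102027966-102028265, plus strand): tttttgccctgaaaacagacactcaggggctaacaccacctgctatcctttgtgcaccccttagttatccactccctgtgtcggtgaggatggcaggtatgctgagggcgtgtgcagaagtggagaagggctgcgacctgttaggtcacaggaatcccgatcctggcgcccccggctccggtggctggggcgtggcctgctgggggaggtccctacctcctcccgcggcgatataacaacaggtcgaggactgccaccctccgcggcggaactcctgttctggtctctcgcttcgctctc
Both strands were searched for the RUNX motif as TGTGGT, for the motif of ETS and ELF factors as AGGAAG, for the GC box as GGGCGG, for the TATA box as TATAAA and for the AP-1 motif as TGAGTCA. Krt7 held 4 GC boxes and 1 ETS motif. Krt8 held 1 ETS motif and 2 TATA matches that overlap on opposite strands, and Krt18 held none of the 5 motifs. Of 32851 RefSeq promoter windows of this length, 35.4% held the ETS motif, 35.7% the GC box, 16.8% the RUNX motif, 13.6% the TATA box and 5.20% the AP-1 motif. No motif of the set was found in all 3 windows, and a match describes letters, not binding.

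The keratins that chose the cells varied widely among them. Krt7 (ENSMUSG00000023039, GRCm38 chromosome 15, 101411043 to 101430313, plus strand), a type II keratin of ducts and simple epithelia, had a UMI in all 68 and all 54 cells. Its lowest, median and highest levels were 3.76, 16.3 and 66.9 UMIs per 10000 in library 1 and 2.58, 13.4 and 71.1 in library 2. Krt18 (ENSMUSG00000023043, chromosome 15, 102028180 to 102032027, plus strand), the type I partner of Krt8, was found in 45 of 68 and 33 of 54 cells, with a median of 2.66 and 2.14 and a highest level of 12.6 and 23.8. No cell was chosen on Krt18 without a Krt7 UMI. As a sum over cells, Krt7 stood at 1669 and 1475 UMIs per 1000000 (counts scaled to the class total, CPM) in libraries 1 and 2, against 3.42 and 2.86 CPM in comparison cells. Krt18 stood at 358 and 380.1 CPM, against 1.25 and 1.48. These values restate the rule and are given as a description.

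Cells on either side of the limit were few. Between 3 and 5 Krt7 plus Krt18 UMIs per 10000 lay 11 unchosen cells in library 1 and 20 in library 2, with Wfdc2, a secreted protease-inhibitor-like protein of glands, at 50.9 and 158 CPM and Krt8 at 0 and 15.8. Just inside, between 5 and 7, lay 8 and 8 chosen cells, with Wfdc2 at 303 and 528 CPM and Krt8 at 118 and 310.3. Their median Krt7 plus Krt18 count was 5 and 3 UMIs, against 3 and 2 in the 11 and 20 unchosen cells. Membership near the limit thus rested on few molecules. The remaining 60 and 46 cells had Wfdc2 at 1309.5 and 1134 CPM and Krt8 at 334 and 373. In the 6609 and 8277 cells without a UMI of either keratin, Wfdc2 stood at 36.4 and 36.4 CPM.

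**Figure D1:**
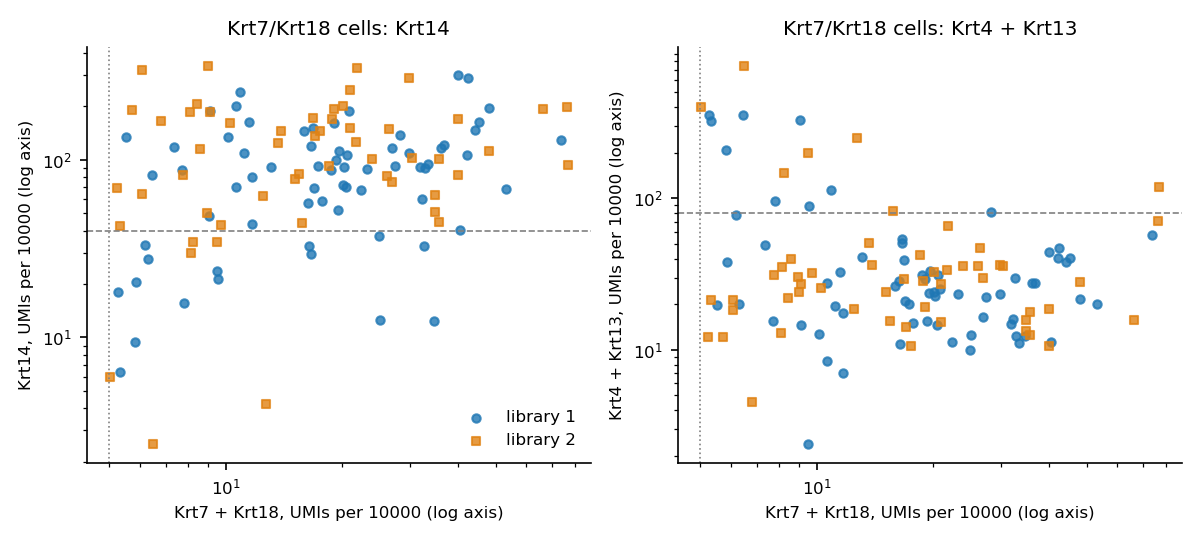
Each point is 1 Krt7/Krt18 cell (68 in library 1, circles; 54 in library 2, squares); the horizontal axis gives Krt7 plus Krt18 and the vertical axis Krt14 (left) or Krt4 plus Krt13 (right), all in UMIs per 10000 on log axes. The dotted line is the limit of 5 that chose the cells and the dashed lines are the comparison limits of 40 and 80; most points lie above 40 for Krt14 and under 80 for Krt4 plus Krt13.

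Apart from the genes of the rule, 5686 genes reached a mean of 20 CPM over both classes and were compared. A gene was called higher or lower when it lay at least 2-fold apart in the same direction in both libraries. By that rule 378 genes (6.65%) were higher and 242 (4.26%) lower in Krt7/Krt18 cells, with a median log2 ratio over all compared genes of 0.07. The share of genes with the same sign in both libraries was 72.6%. A gene under 20 CPM in comparison cells reaches the minimum mean of 20 CPM only by standing higher in Krt7/Krt18 cells. The minimum thus sets its direction and favours a call. Of 503 such genes, 217 were called higher, and they made up 217 of the 378 higher genes. In the other direction, 109 of 308 such genes were called lower, among the 242 lower genes. Counts and medians of the gene lists below are therefore descriptions of the measured genes and no support for a list as a whole, and a listed gene that did not reach 20 CPM was not counted.

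Further simple-epithelium keratins were found in cells chosen on Krt7 and Krt18. The list had 3 measured genes (Krt8, Krt19 and Krt23), with a median log2 ratio of 8.05. All 3 reached 20 CPM only through Krt7/Krt18 cells, so their direction was set by that minimum. Krt8 (ENSMUSG00000049382, chromosome 15, 101996698 to 102004482, minus strand), the type II partner of Krt18, stood at 296 and 359 CPM against 1.06 and 1.43, log2 ratios of 8.13 and 7.97. It had a UMI in 46 of 68 and 33 of 54 cells, with a highest level of 17.0 and 14.8 per 10000. Krt19 (ENSMUSG00000020911, chromosome 11, 100140810 to 100148665, minus strand), a type I keratin of ducts, was at 629 and 321 CPM against 2.02 and 0.89 (log2 8.28 and 8.50). It sat in a minority of cells, with a UMI in 25 of 68 and 15 of 54 and up to 82.2 and 46.0 per 10000. Krt23, a type I keratin of gland and stressed epithelia, was at 41.3 and 115 CPM against 16.5 and 17.4. It was highest in cells near the limit, at 71.6 and 236 CPM for Krt7 plus Krt18 of 5 to 10 per 10000. From 10 to 20 it stood at 32.1 and 0 CPM, and at 20 and over at 25.9 and 30.7. Krt20, the remaining list gene outside the rule and a keratin of Merkel and gut cells, was not measured at 20 CPM.

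Shares of cells with a UMI depend on depth and on free RNA in the droplets, so both were measured. With every cell thinned to 3000 UMIs, Krt8 had a UMI in 34 of 68 and 27 of 54 Krt7/Krt18 cells (intervals 37.6% to 62.4% and 36.1% to 63.9%), against 0.31% and 0.33% of comparison cells. Immune cells (Cd52 of at least 3, Krt7 plus Krt18 under 5) should lack these keratins and served as the reference for free RNA. After thinning, 0 of 24 and 0 of 35 had a Krt8 UMI, which allows shares up to 14.2% and 10.0%. Cells that met the comparison limits were not counted as immune, which left out 4 with Cd52 of at least 3. The Krt14 level of immune cells thus depends in part on that choice. Unthinned, the shares were 67.6% and 61.1% in Krt7/Krt18 cells, 0.55% and 0.62% in comparison cells, and 4.17% and 0% in immune cells, at immune medians of 7456 and 6975 UMIs.

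**Figure D2:**
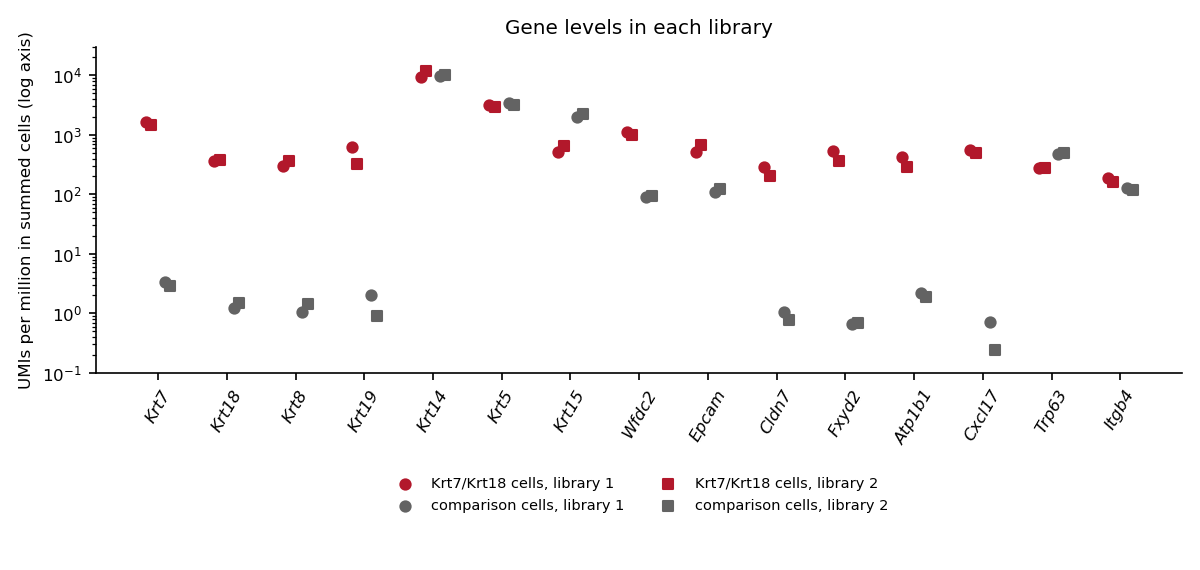
Levels of 15 genes in summed cells, in CPM on a log axis, for Krt7/Krt18 cells (red) and comparison cells (grey) in library 1 (circles) and library 2 (squares). Krt8, Krt19, Cldn7, Fxyd2, Atp1b1 and Cxcl17 stand over 2 orders of magnitude apart, whereas Krt14, Krt5 and Itgb4 lie close together.

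Basal features of stratified epithelium were kept alongside. Krt14 (ENSMUSG00000045545, chromosome 11, 100203162 to 100207548, minus strand) stood at 9375 and 12003 CPM, against 9865 and 10066 in comparison cells, which had been chosen on it. Per cell it ranged from 6.38 through a median of 90.5 to 300.1 UMIs per 10000 in library 1, and from 2.50 through 107 to 338 in library 2. Krt5, the partner of Krt14 and no part of the rule, was at 3202 and 2961 CPM against 3450 and 3203, log2 ratios of -0.11 and -0.11. Immune cells held Krt14 at 1283 and 730 CPM and Krt5 at 1412 and 396, so a part of the level in any cell of these libraries can be free RNA. Trp63, the p53-family factor of the basal layer, was at 278 and 282 CPM against 478 and 493 (log2 -0.78 and -0.80), within 2-fold.

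The antigen of the sort was present. Itgb4 (ENSMUSG00000020758, chromosome 11, 115974709 to 116008412, plus strand) stood at 188 and 160 CPM against 130 and 118, log2 ratios of 0.54 and 0.45 and within 2-fold. It had a UMI in 41 of 68 and 27 of 54 Krt7/Krt18 cells. At 3000 UMIs these were 34 of 68 and 15 of 54 cells, the latter 27.8%, against 32.5% and 29.8% of comparison cells and 4.17% and 5.71% of immune cells. Its partner Itga6 (log2 -0.42 and -0.58) and the hemidesmosome collagen Col17a1 (-0.70 and -0.44) were within 2-fold too. The wider anchoring list, of hemidesmosome and basement membrane proteins, had 1 of 10 measured genes higher and 0 lower (median 0.21).

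One basal keratin stood apart in each direction. Krt15, a keratin of basal and stem-like keratinocytes, was at 519 and 652 CPM against 2034 and 2229, log2 ratios of -1.97 and -1.77. Krt17, a keratin of ducts, appendages and wounded epithelium, was at 9602 and 7295 CPM against 146 and 153 (log2 6.04 and 5.58). Krt17 was widespread, with a UMI in 62 of 68 and 48 of 54 cells and a median of 35.1 and 35.3 per 10000, up to 586 and 557. In comparison cells 429 of 2887 and 449 of 3374 had one. Krt6a, a keratin of mucosa and stress whose reads can be shared with the near-identical Krt6b, was at 1728 and 2134 CPM against 400 and 366 (log2 2.11 and 2.54). Krt6b itself differed between the libraries, at 202 and 80.2 CPM against 62.7 and 63.4.

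Few secretory products of salivary glands reached 20 CPM. Of 36 listed genes, 35 were in the files and 3 were measured, all called higher: Wfdc2, Wfdc18 and Ltf. The last pair reached the minimum only through Krt7/Krt18 cells, and a gene under it is not shown to be absent. Wfdc2 (ENSMUSG00000017723, chromosome 2, 164562413 to 164568510, plus strand) stood at 1134 and 997 CPM against 89.4 and 94.1, log2 ratios of 3.67 and 3.41. It had a UMI in 64 of 68 and 46 of 54 cells, with medians of 11.9 and 8.62 per 10000, and in 963 of 2887 and 1085 of 3374 comparison cells. Immune cells carried it at 5.15 and 10.4 CPM. Wfdc18, a secreted protein of the same domain family, was at 124 and 90.7 CPM with a UMI in 17 of 68 and 11 of 54 cells. Its 2 UMIs in the comparison cells of library 1 and 0 in library 2 give a pooled log2 ratio between 9.25 and 14.2. Ltf, the iron-binding lactoferrin, was at 11.5 and 80.2 CPM but rested on 3 cells in library 1 and 2 in library 2, with 22 UMIs in 1 cell. Its mean fell under 20 CPM without library 2, and its call also ended at 5% mitochondrial UMIs and under the comparison limits. The mucin gene Muc1 had 4 and 4 UMIs and did not reach 20 CPM.

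Acinar cells make the saliva proteins, and their markers were close to 0. Of 10 salivary acinar markers, 9 had no UMI in any Krt7/Krt18 cell, among them the water channel Aqp5, the acinar factor Bhlha15, and Pip, Smgc, Prol1, Lpo and Bpifa2. The list summed to 4.59 and 0 CPM, from 1 detected gene, Amy1. Genes of the general secretory pathway, such as the endoplasmic reticulum chaperones Calr (log2 0.40 and 0.33) and Hsp90b1 (-0.63 and -0.07), had 0 of 19 higher and 1 lower (median 0.04). The lower gene was Sdf2l1, an endoplasmic reticulum stress protein, at 9.18 and 17.4 CPM against 32.3 and 38.7. Mucin-type glycosylation had 1 of 3 measured genes higher, the sialyltransferase St3gal4 (1.40 and 1.62), and 0 lower (median -0.18). Contractile genes of myoepithelial cells had 0 of 2 measured genes past the rule, the tropomyosins Tpm1 (1.01 and 0.57) and Tpm2 (-0.15 and 0.48).

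Some salt transport genes of ducts were far above comparison cells. Of 10 measured genes for ion and water transport in ducts, 7 were called higher and 1 lower (median 1.55), and 4 of the 7 (Fxyd2, Fxyd4, Atp1b1 and Scnn1a) reached 20 CPM only through Krt7/Krt18 cells. Fxyd2 (ENSMUSG00000059412, chromosome 9, 45399669 to 45410278, plus strand), the γ subunit that tunes the sodium pump, was at 537 and 359 CPM against 0.67 and 0.69, log2 ratios of 9.64 and 9.03. It had a UMI in 45 of 68 and 27 of 54 cells, with a highest level of 53.2 and 29.5 per 10000. Fxyd4, a related pump subunit, was at 126 and 90.7 CPM against 1.20 and 0.89 (log2 6.71 and 6.68). Atp1b1, the β1 chain of the pump, was higher as well, at 420.1 and 293 CPM against 2.22 and 1.92 (log2 7.57 and 7.25). Scnn1a, a subunit of the epithelial sodium channel, was at 43.6 and 31.4 CPM against 4.63 and 4.14 (3.24 and 2.92), and the water and glycerol channel Aqp3 at 888 and 959 against 359 and 349 (1.31 and 1.46). The scaffold Slc9a3r1, which holds transporters at the apical membrane, was at 91.8 and 115 CPM against 29.8 and 33.0. In the other direction, Slc12a2, the sodium, potassium and chloride cotransporter of secreting cells, was at 25.2 and 41.8 CPM against 97.7 and 98.4 (-1.95 and -1.23). Aqp3 and Slc12a2 lost their calls when a UMI of both keratins was required, and Slc12a2 under the comparison limits as well. Here and below, requiring both keratins replaced the limit of 5. It thus also took in cells under that limit, 52 and 35 cells in all. The chloride channel gene Cftr had no UMI in either class.

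Surface genes of lumen-lining cells were mostly called higher. Of 9 measured duct surface genes, 8 were higher and 0 lower (median 1.95), and 4 of the 8 reached 20 CPM only through Krt7/Krt18 cells. Epcam, an adhesion molecule of simple epithelia, was at 512 and 670 CPM against 110.3 and 124 (log2 2.21 and 2.43), with a UMI in 62 of 68 and 46 of 54 cells. The surface antigen Cd24a was at 475 and 446 CPM against 103 and 115. The membrane proteases Prss8 and St14 and their inhibitors Spint1 (2.96 and 3.41) and Spint2 (1.26 and 1.15) were higher too, as was Cldn4. Epcam was no free RNA check, since immune cells held it at 526 and 636 CPM.

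Claudins, which form the seal of tight junctions, had 3 of 6 measured genes of their list higher and 0 lower (median 3.73 in library 1 and 4.01 in library 2), and the 3 (Cldn3, Cldn4 and Cldn7) reached 20 CPM only through Krt7/Krt18 cells. The median of the list depended on the setting. It was 0.99 at 5% mitochondrial UMIs, 1.30 at 3000 UMIs per cell, 1.01 for per-cell means, 1.09 under the comparison limits, 1.04 without the deepest cells (those over the 95th percentile of UMIs), 1.04 without library 2 and 2.16 with no minimum on CPM. Cldn7 (ENSMUSG00000018569, chromosome 11, 69964779 to 69967885, plus strand) stood at 292 and 206 CPM against 1.06 and 0.79, log2 ratios of 8.10 and 8.03. Cldn4 was at 142 and 153 CPM against 1.64 and 0.74 (6.44 and 7.70), and Cldn3 at 48.2 and 41.8 against 0.29 and 0.30 (7.38 and 7.15). A UMI of Cldn7 was found in 45 of 68 and 32 of 54 cells, of Cldn4 in 30 and 24, and of Cldn3 in 17 and 6. Cldn8 (1.02 and 0.19) and the junction adhesion molecule F11r (0.99 and 0.88) did not pass the rule. Apical polarity had 5 of 7 genes higher and 0 lower (median 1.71), 3 of the 5 through Krt7/Krt18 cells only. Mal, a protein of apical membrane transport, was at 269 and 251.1 CPM against 4.77 and 5.02 (5.82 and 5.64), and Rab25, a small GTPase of apical recycling, at 585 and 589 against 200.1 and 196. The polarity protein Crb3 was at 39.0 and 45.3 CPM against 10.0 and 11.2.

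**Figure D3:**
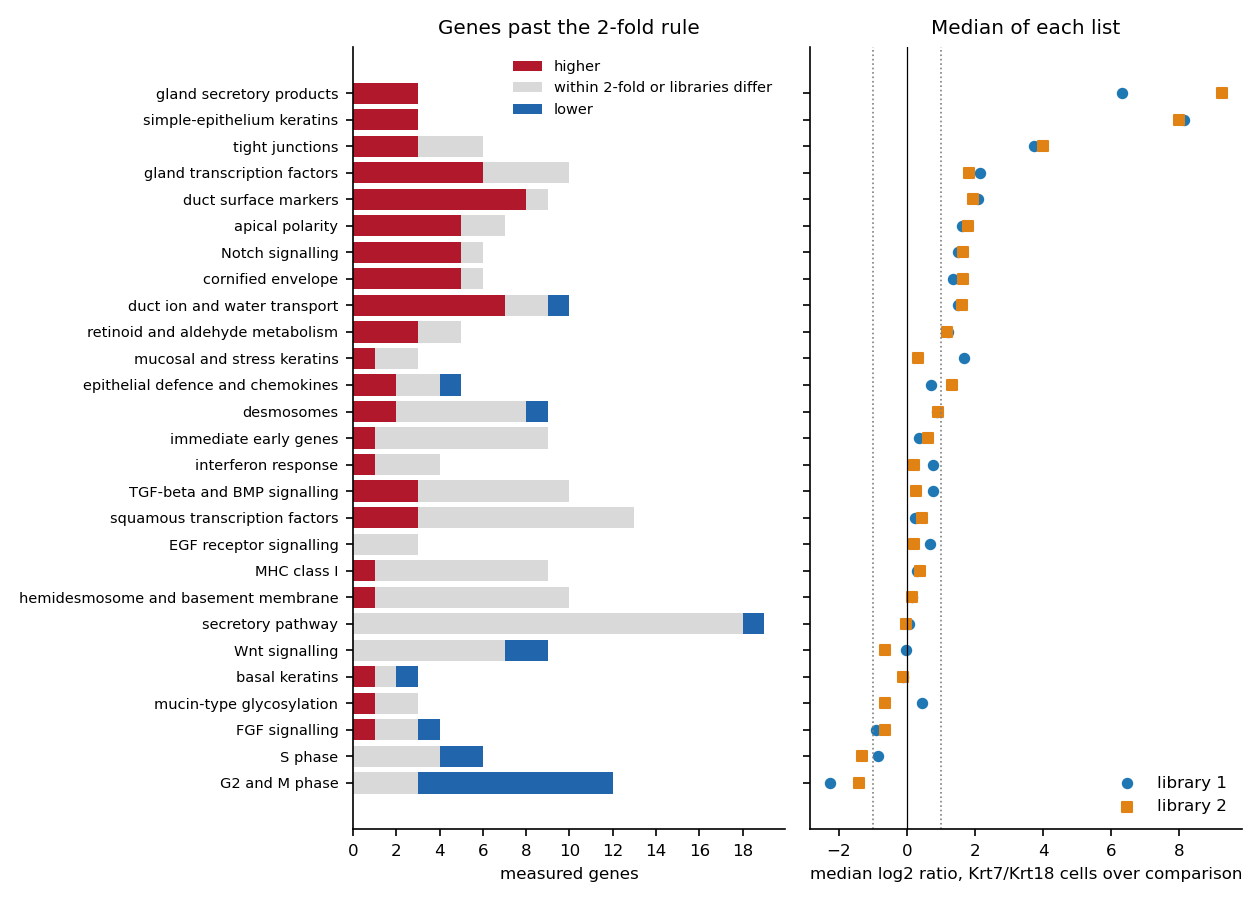
Left, the number of measured genes in each list that were higher (red), lower (blue) or neither (grey) by the 2-fold rule in both libraries; right, the median log2 ratio of Krt7/Krt18 over comparison cells in library 1 (circles) and library 2 (squares), with dotted lines at 2-fold. Lists with at least 3 measured genes are drawn; the simple-epithelium keratin, gland secretory product and tight junction lists lie furthest to the right and the G2 and M phase list (9 of 12 lower) lies to the left.

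Transcription factors of glands were higher in 6 of 10 measured genes and lower in 0 (median 1.99), and Tfcp2l1, Runx1 and Sox9 reached 20 CPM only through Krt7/Krt18 cells. Tfcp2l1, a factor of kidney and salivary ducts, was at 849 and 638 CPM against 18.8 and 16.9, log2 ratios of 5.50 and 5.24. Runx1, a runt-domain factor of gland and hair follicle epithelium, was at 186 and 133 CPM against 1.64 and 2.26 (6.83 and 5.87). The ETS-family factors of epithelia Elf3 (147 and 108 CPM against 25.9 and 27.4) and Ehf (333 and 296 against 96.5 and 92.7) were higher too. So were Sox9, a progenitor factor of gland buds (68.9 and 97.6 CPM against 10.4 and 8.03), and the forkhead factor Foxc1 (202 and 122 against 23.4 and 25.9). Sox10, a factor of salivary acinar and myoepithelial cells, had no UMI in either class. The squamous factors were nearer to the comparison cells, with 3 of 13 higher and 0 lower (median 0.32). The higher ones were the barrier regulators Zfp750 (3.09 and 3.02), Grhl1 (2.96 and 1.32) and Klf4 (129 and 122 CPM against 45.4 and 46.2). Pitx1 (0.20 and 0.44), a homeobox factor of oral epithelium, was within 2-fold.

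Notch pathway genes were higher in 5 of 6 measured genes and lower in 0 (median 1.57). Notch signalling passes between neighbouring cells through a cleaved receptor that switches on Hes and Hey repressors. Hey1 was at 45.9 and 41.8 CPM against 0.87 and 0.49 (log2 5.73 and 6.41), and Hes1 at 574 and 781 against 174 and 203 (1.73 and 1.95). The receptor Notch2 (1.90 and 2.11), the ligand Jag1 (1.25 and 1.34) and the feedback gene Nrarp (1.31 and 1.04) were the others, whereas Notch1 (-0.22 and -0.02) was not. Notch2 and Hey1 reached 20 CPM only through Krt7/Krt18 cells. Nrarp lost its call with median-of-ratios scaling, with a UMI of both keratins required, at 3000 UMIs per cell and for per-cell means. Jag1 lost its call in the last 2 of these settings. Hes1 kept its call in all of them, and Notch2 and Hey1 were not tried in them.

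Other signalling lists moved less. Wnt genes had 0 of 9 higher and 2 lower (median -0.10): the ligands Wnt4 (80.3 and 55.8 CPM against 186 and 164) and Wnt10a (57.4 and 69.7 against 145 and 152). Wnt10a lost its call at a limit of 10 for the keratins, at 3000 UMIs per cell, for per-cell means, under the comparison limits and without the deepest cells, and Wnt4 with both keratins required and at 5% mitochondrial UMIs. TGF-β and BMP genes had 3 of 10 higher and 0 lower (median 0.48), namely the BMP target Id1 (670.3 and 676.5 CPM against 227 and 229), the inhibitor Smad7 and the receptor Tgfbr1. FGF genes had 1 higher and 1 lower of 4: the carrier Fgfbp1 (767 and 635 CPM against 248 and 262) and the receptor Fgfr2 (34.4 and 17.4 against 94.2 and 85.6). Fgfr2 transcripts were not separated by isoform. Genes of the EGF receptor list had 0 of 3 past the rule in either direction, with Egfr at 0.38 and 0.22.

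Vitamin A handling and epithelial alarm signals were represented by few measured genes. Of 5 measured retinoid and aldehyde genes 3 were higher and 0 lower (median 1.19), among them the retinoic acid carrier Crabp2 (216 and 307 against 36.0 and 39.3) and the aldehyde dehydrogenase Aldh2 (1.20 and 1.18). Epithelial defence and chemokine genes went both ways, with 2 higher and 1 lower of 5. Cxcl17 (ENSMUSG00000060188, chromosome 7, 25400053 to 25412886, minus strand), a chemokine of mucosal epithelia, stood at 562 and 488 CPM against 0.72 and 0.25 (9.60 and 10.95), in 55 of 68 and 41 of 54 cells. The alarmin Il33 was at 223 and 258 CPM against 23.6 and 19.2 (3.24 and 3.74). Cxcl14, a chemokine of resting stratified epithelium, was the lower one, at 6.89 and 6.97 CPM against 86.7 and 82.9 from 3 and 2 UMIs (pooled interval -5.24 to -2.39). MHC class I genes had 1 of 9 higher (Psmb10, an immunoproteasome subunit), and interferon response genes 1 of 4 (Oasl2, 1.74 and 1.57). Of the immediate early genes 1 of 9 was higher, Jun (131 and 181 CPM against 21.8 and 21.6), with Junb (0.49 and 0.80) and Ier2 (0.36 and 0.53) within 2-fold.

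Some genes of the cornified envelope and desmosomes were higher as well. Of 6 measured envelope genes 5 were higher and 0 lower (median 1.55). Sprr1a, a cross-linked envelope precursor, was at 2075 and 1949 CPM against 38.4 and 21.6 (log2 5.76 and 6.50), but very unevenly, with a UMI in 31 of 68 and 29 of 54 cells and a highest level of 367 and 84.8 per 10000. The suprabasal secreted proteins Sbsn (1.30 and 1.83) and Krtdap (1.38 and 1.80) and the plakins Evpl and Ppl were the others. The median was 0.84 with a UMI of both keratins required, where Krtdap and Sbsn lost their calls. Sbsn also lost its call at a limit of 10 for the keratins, at 3000 UMIs per cell, under the comparison limits and without the deepest cells. Of 9 desmosome genes 2 were higher, the cadherin Dsc2 (314 and 282 CPM against 59.0 and 56.4) and the plakophilin Pkp1, and 1 lower, the cadherin Dsc3 (87.2 and 108 against 225 and 221).

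Cell cycle transcripts were lower. Of 12 G2 and M phase genes, 9 were lower and 0 higher (median -1.91), and of 6 measured S phase genes, 2 were lower and 0 higher (-1.26). The mitotic cyclin Ccnb1 was at 29.8 and 62.8 CPM against 250.4 and 315 (log2 -3.07 and -2.33), the topoisomerase Top2a at 50.5 and 136 against 347 and 373 (-2.78 and -1.46), and the mitotic kinase Cdk1 at 64.3 and 83.7 against 259 and 279 (-2.01 and -1.74). Rrm2, a ribonucleotide reductase subunit, was at 25.2 and 20.9 CPM against 81.0 and 91.2. Library 1 lay further from the comparison cells than library 2 for the G2 and M list, with medians of -2.26 and -1.40. Cells with at least 3 UMIs of 24 cycle genes among 3000 made up 13.2% (6.23 to 23.6) and 22.2% (12.0 to 35.6) of Krt7/Krt18 cells, against 46.4% and 50.8% of comparison cells. Unthinned, with the limit scaled to depth, the shares were 8.82% and 14.8% against 42.6% and 47.0%. Immune cells reached 9 of 24 and 14 of 35 by the same count, so free cycle RNA was not separated from cycling, and these shares are no count of dividing cells.

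Outside the lists, several genes lay furthest above comparison cells. The tetraspanin Tspan8 was at 232 and 209 CPM against 0.29 and 0.25 (log2 9.65 and 9.73), in 43 of 68 and 29 of 54 cells, although 7 of 35 immune cells in library 2 also had a UMI of it after thinning. Sorbs2, an actin-linked adaptor, was at 165 and 241 CPM against 0.48 and 0.34 (8.42 and 9.45). Col25a1, a transmembrane collagen, was at 75.7 and 52.3 CPM against 1 UMI in each library's comparison cells (pooled interval 8.48 to 13.5). The monocarboxylate transporter Slc5a8 (66.6 and 45.3 CPM, interval 7.99 to 12.0), the matrix protein Fbln2 (55.1 and 73.2, interval 7.67 to 10.7), the fucosyltransferase Fut9 (55.1 and 41.8, interval 8.04 to 13.1) and the tetraspanin Tspan12 (52.8 and 73.2, interval 6.95 to 9.12) followed. Csprs was also among them (59.7 and 38.4 CPM), but it belongs to a multicopy locus between whose copies reads can be shared, so its value is uncertain.

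Other genes lay furthest below comparison cells. Igfbp2, an insulin-like growth factor binding protein, was at 202 and 122 CPM against 1442 and 1613 (log2 -2.84 and -3.72), and its relative Igfbp7 at 32.1 and 17.4 against 289 and 291. The imprinted non-coding RNA H19 was at 73.4 and 34.9 CPM against 573 and 588 (-2.96 and -4.08), and Hpgd, which inactivates prostaglandins, at 55.1 and 31.4 against 477 and 480 (-3.11 and -3.93). Cck, a peptide hormone gene, rested on 4 and 1 UMIs, against 169 and 170 CPM in comparison cells (interval -6.24 to -3.39). The Wnt ligands Wnt6 (6.89 and 10.5 CPM against 69.6 and 69.8) and Wnt16 (9.18 and 6.97 against 63.4 and 60.6) stood outside the Wnt list and were lower too. The forkhead factor Foxp2, the surface protein Thy1, the matricellular gene Smoc2, the carboxypeptidase subunit Cpn1 and the transsulfuration enzyme Cbs were each down to 5 UMIs or fewer over both libraries. Aknad1 and 1700025G04Rik, at 15 and 12 UMIs, completed the 15.

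**Figure D4:**
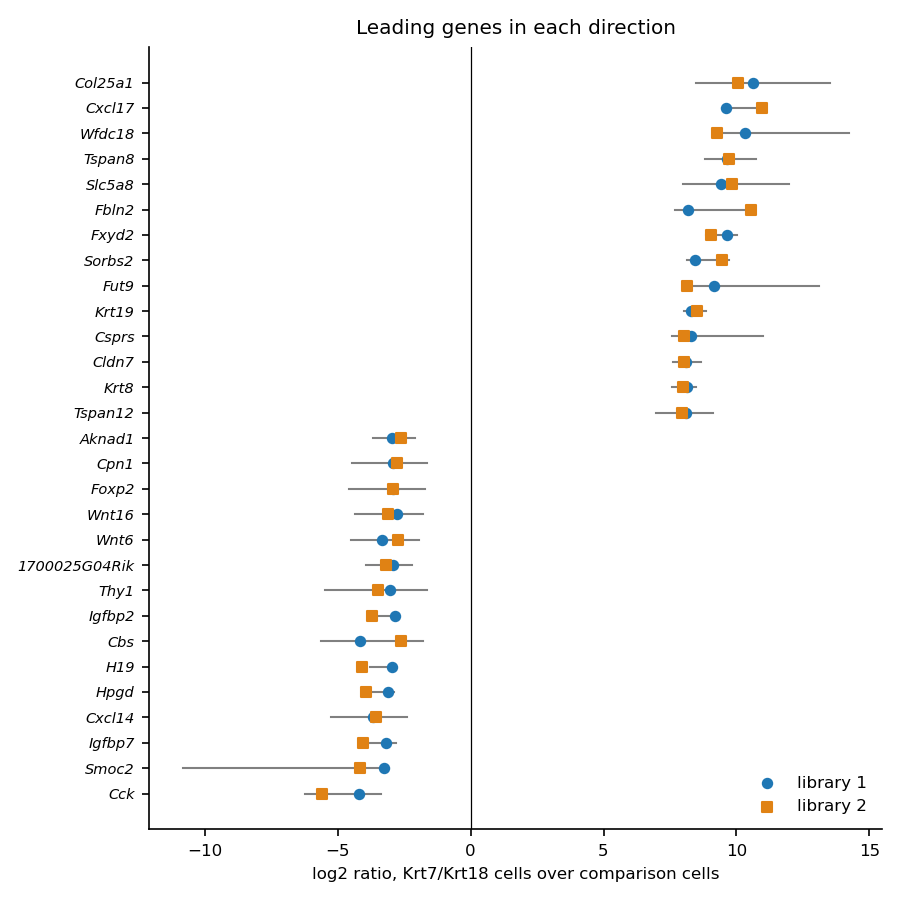
Log2 ratios of Krt7/Krt18 over comparison cells for genes among the 15 furthest above and the 15 furthest below, in library 1 (circles) and library 2 (squares); grey lines are 95% counting intervals of the counts pooled over both libraries. A count of 0 was set to 3, so Wfdc18, Fut9 and Csprs in library 2 are lower bounds and Smoc2 in library 1 an upper bound on the log2 ratio.

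Most markers of other cell types were at or near 0. The 8 T and NK cell markers in the files, of 9 listed, had no UMI in Krt7/Krt18 cells, although the rule itself limited Cd52, one of them. All melanocyte and erythroid markers were at 0. The Schwann list summed to 43.6 and 20.9 CPM against 22.9 and 22.6 in comparison cells and 56.7 and 17.4 in immune cells, mostly from the myelin gene Mbp, with Sox10 at 0. Of the Merkel list, which shares Krt8 and Krt18 with these cells, the defining genes Atoh1, Isl1, Krt20, Snap25 and Chga were at 0. Taste cells also use Krt8, and 7 of 9 taste markers were at 0, Trpm5, Plcb2 and Gnat3 included. Of 7 myoepithelial and smooth muscle markers 5 were at 0 and the list summed to 0 and 10.5 CPM, against 12.0 and 10.8 in comparison cells. Fibroblast genes were limited to Dcn, at 27.6 CPM against 158 in comparison cells. The hair follicle and sebaceous list summed to 494 and 534 CPM against 331 and 392, mostly from the microsomal glutathione transferase gene Mgst1 (472 CPM against 339), and the follicle keratins Krt25, Krt27, Krt71 and Krt35 were at 0. Langerhans and dendritic genes summed to 11.5 and 27.9 CPM, against 14.1 and 63.2 in comparison cells and 48254 and 80386 in immune cells.

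Most Krt7/Krt18 cells would have met the basal limits set for the comparison. Krt14 of at least 40 with Krt4 plus Krt13 under 80 held for 49 of 68 and 46 of 54 cells. A further 10 and 1 cells had less Krt14 with little Krt4 plus Krt13. The remaining cells had Krt4 plus Krt13 of at least 80, with Krt14 above its limit in 4 and 2 and under it in 5 and 5. Those 5 and 5 cells lay near the lower limit of the rule, with a median Krt7 plus Krt18 of 5.81 and 8.22 per 10000, and were deep, at median UMIs of 11538 and 8434. Their Wfdc2 was at 337 and 142 CPM and their Cxcl17 at 106 and 20.3, while their Krt4 reached 9703 and 23841. Whether such barcodes hold more than 1 cell was not tested. Held to the comparison limits, Krt7/Krt18 cells gave 451 genes higher and 248 lower, of which 350 and 197 were among the 378 and 242.

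Some gland genes varied with the level of Krt7 plus Krt18. Cells were divided at 10 and 20 UMIs per 10000, which gave 15, 23 and 30 cells in library 1 and 19, 14 and 21 in library 2. Wfdc2 went from 374 and 519 CPM in the lowest band through 1162 and 955 to 1725 and 1647 in the highest. Tfcp2l1 went from 374 and 314 through 822 and 680.0 to 1265 and 1033. In the same order Fxyd2 stood at 127 and 173, 469 and 227, and 940.4 and 685 CPM. Cxcl17 stood at 175 and 251.5, 552 and 437, and 889 and 829. In both libraries these 4 genes were ordered as the keratins were. Cldn3 was highest in the top band of both libraries, at 0 and 7.86, then 19.3 and 32.4, then 117 and 92.1 CPM. Others did not keep that order. From the lowest to the highest band Fxyd4 stood at 55.7 and 47.1, 225 and 97.1, and 84.3 and 143 CPM, and Wfdc18 at 143 and 94.3, 135 and 16.2, and 97.3 and 133. Cldn4 and Ehf stood lowest in the lowest band but peaked in different bands in the 2 libraries, Cldn4 at 15.9 and 47.1, 205 and 194, and 182 and 266 CPM and Ehf at 215 and 283, 372 and 308, and 389 and 307. Sox9 peaked in the middle band in both, at 128 and 162 CPM, against 39.8 and 78.6 below and 32.4 and 81.8 above.

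Krt15, Igfbp2 and Top2a were lowest in the highest band of both libraries. Krt15 was at 454 and 841 CPM in the lowest band, 854 and 793 in the middle and 233 and 317 in the highest. Igfbp2 went from 493 and 212 through 148 and 81.0 to 19.5 and 30.7. Top2a stood at 79.6 and 283 CPM in the lowest band and at 0 UMIs in the highest band of both libraries. Krt17 peaked in the middle, at 18335 and 13859 CPM against 1933 and 5084 below and 7030.2 and 6026 above. Depth moved with the bands, with median UMIs of 8383 and 5823 in the lowest and 4704 and 3786 in the highest. Mucosal keratin moved as well, with Krt13 at 8442 and 8903 CPM in the lowest band and 1829 and 1545 in the highest. Median Krt4 plus Krt13 per cell was 77.5 and 27.4 UMIs per 10000 against 23.0 and 30.0, so it fell in library 1 only. Cells with at least 80 lay mostly in the lowest band. The part of depth and of such cells in these orders was not tested.

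**Figure D5:**
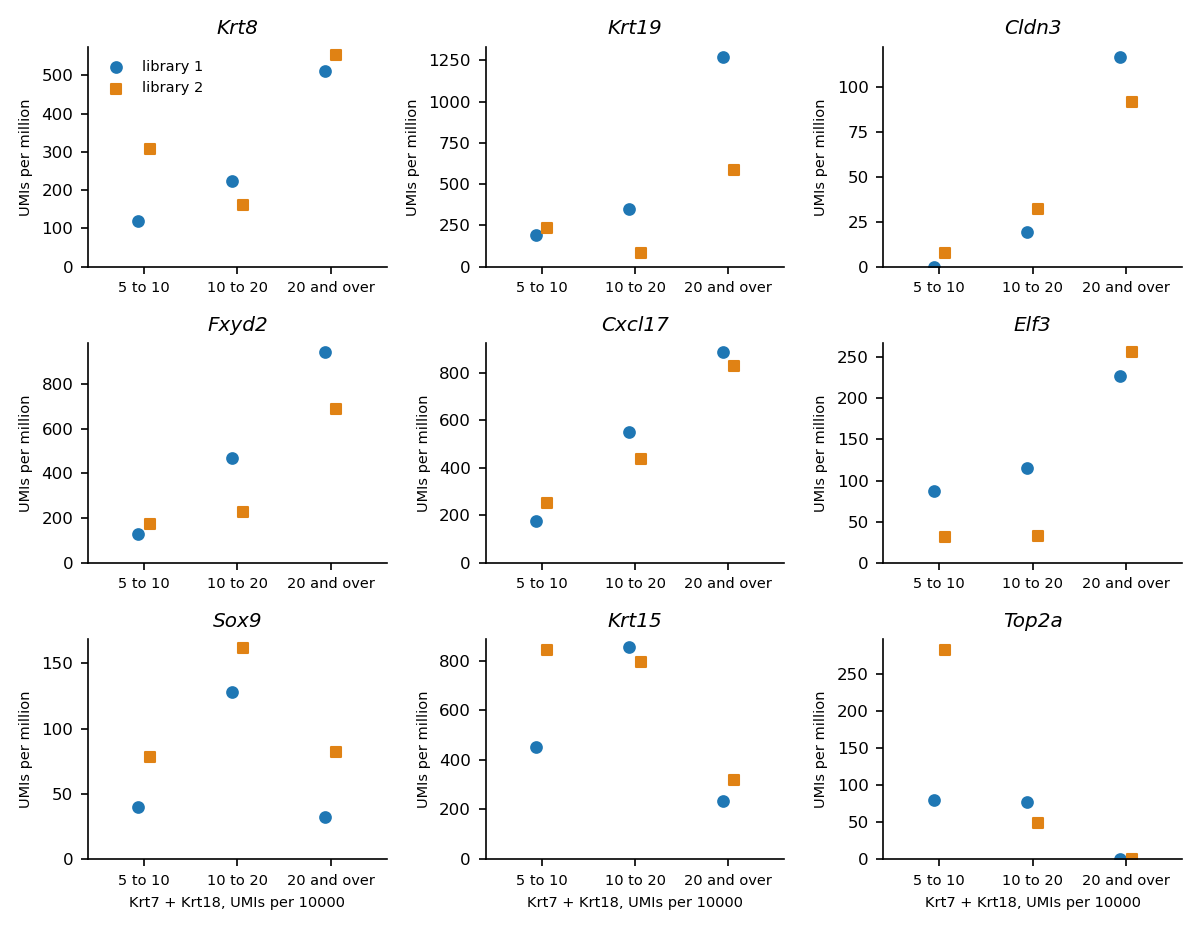
Levels of 9 genes in CPM (linear axes from 0) in Krt7/Krt18 cells split by Krt7 plus Krt18 level, for library 1 (circles; 15, 23 and 30 cells) and library 2 (squares; 19, 14 and 21 cells). Fxyd2, Cxcl17 and Cldn3 are highest in the top band in both libraries, Sox9 in the middle band, and Top2a is at 0 in the top band.

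The cells were also divided by detection of Krt18. Krt7 alone was found in 23 and 21 cells and both keratins in 45 and 33. Krt8 was at 399 and 459 CPM in cells with both, against 78.5 and 218 in cells with Krt7 alone, and Cxcl17 at 728 and 632 against 214 and 285. Krt17 was high on both sides, at 9228 and 4580.0 CPM against 10390 and 11119. Krt15, at 545 and 865 CPM against 464 and 353, and Top2a, at 57.5 and 173 against 35.7 and 84.0, were higher with both keratins, although both genes were lowest in the highest band. Median UMIs were 5214 and 3896 against 4983 and 4714. Cells with both keratins also had more Krt7 plus Krt18, with medians of 20.7 and 21.7 UMIs per 10000 against 10.6 and 9.13. The part of that level in this division was not tested.

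Krt19 marked a further division, chosen after its values were seen. The 25 and 15 cells with a Krt19 UMI had more Aldh2 (657 and 634 CPM against 177 and 230.4 in the other Krt7/Krt18 cells) and more Fxyd2 (950.1 and 958 against 312 and 150.5). Hey1 was at 91.1 and 108 CPM against 21.3 and 18.8, and Tspan8 at 364 and 351 against 160 and 160. In contrast, their Aqp3 was lower (482 and 378 CPM against 1110.0 and 1161), as were Krt6a (540.1 and 729 against 2376 and 2624), Sprr1a (729 and 715 against 2809 and 2379) and Krt17 (4620 and 1471 against 12317 and 9324). Krt14 remained in both sets, at 8557 and 8963 CPM with Krt19 and 9820 and 13062 without. Median depth was 4733 and 3874 UMIs against 5226 and 4421. Cells with Krt19 also had more Krt7 plus Krt18, with medians of 23.2 and 23.9 UMIs per 10000 against 16.6 and 15.1. Within Krt7/Krt18 cells of both libraries, Fxyd2 and Aldh2 thus went with Krt19, and Krt17, Krt6a, Sprr1a and Aqp3 with its absence, as a description of 122 cells. The part of the Krt7 plus Krt18 level in this division was not tested, and Fxyd2 and Aldh2 were also highest in the highest band of that level.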

How the data were processed

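Sorted buccal epithelial cells were measured in 2 10x Chromium libraries with 67962712 and 73935792 UMIs over 7215 and 9076 barcodes. The deposited values are raw UMI counts per gene and barcode. Per the submitters' processing notes they come from Cell Ranger, whose version is not given in the sources used here, with the mouse build mm10. Coordinates are from GENCODE M21 on GRCm38 and promoter windows from RefSeq (GRCm38.p6).

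Members and gene lists were chosen with earlier results of these data known. Within each library the UMIs of all cells in a class were added up and scaled to 1000000 (CPM), and ratios were taken within a library. A call needed 2-fold in the same direction in both libraries and a mean of at least 20 CPM. Genes of the selection rule and mitochondrial genes were left out of the counts, and a count of 0 was set to 3. Named genes were the 6 markers, the 15 highest and 15 lowest past the rule, the 12 highest and lowest of the 28 lists, and up to 4 abundant examples per list. Further list genes and cell type markers were named after their values were seen. Some genes that the rule names are not reported here. Intervals are 95% exact binomial (conditional for ratios) and cover counting error only. No doublet caller was run and no cell was removed as a doublet. The steps were tested on simulated counts. The changed genes there lay well over 2-fold apart and started well over 20 CPM, so changed genes near these limits were not tried. Software was Python 3.11.15, with pandas 2.3.3 for tables, numpy 2.4.6 and scipy 1.17.1 for statistics, and figures drawn in matplotlib 3.10.9.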

Additional observations from a re-analysis of the deposited data

How the results depend on the processing

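The share of Krt7/Krt18 cells depended on how they were defined. With a limit of 10 in place of 5 UMIs per 10000 it was 0.409% in library 2. With a UMI of both keratins required instead of that limit it was 0.753% and 0.409%, from 52 and 35 cells. It was 0.754% in library 1 at 5% mitochondrial UMIs, 0.709% when held to the comparison limits, and 1.35% and 0.828% among cells low in cell cycle transcripts. Genes higher and lower numbered 182 and 123 at a minimum of 50 CPM, 4733 and 443 with no minimum, and 725 and 457 at 1.5-fold. With library 1 or library 2 left out, a call rests on 1 library, and these counts ranged from 571 to 611 and from 363 to 385. Among cells low in cell cycle transcripts, a limit built on the same genes, only 1 gene of the G2 and M phase list was still measured. It was Ube2c, which turned to a log2 ratio of 0.059, so the median of that list was this single value. Ccna2 turned to 0.78 and Hmmr to 1.28, both under the minimum there, and Rrm2 to 0.60. Ccnb1, Top2a, Birc5 and Cdk1 stayed lower in every setting, with log2 ratios of at most -1.36, -1.38, -0.67 and -0.30. Median-of-ratios scaling gave 340 higher and 267 lower, including 340 and 242 of the original calls, and ended the call of Nrarp among 77 named calls. Ltf lost its call without library 2 and Csprs without library 1, each by its mean falling under 20 CPM. Apart from the 50 CPM minimum and the limit on cycle transcripts, 1 or more planned settings ended some of these 77 calls. These were the calls of Aldh2, Aqp3, Cldn3, Csprs, Cxcl14, Hmmr, Jag1, Krtdap, Ltf, Nrarp, Oasl2, Rrm2, Sbsn, Slc12a2, Spint2, St3gal4, Thy1, Tyms, Wnt4 and Wnt10a. The cause of these losses was not tested. Called genes outside the 77, such as Sox9, Elf3 and Foxc1, were not tried one by one in the settings.

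No paired analysis was possible because there is 1 group; ratios were taken within each library. With 68 and 54 cells, a level of 20 CPM rests on under 10 UMIs in either library, so small differences were not detectable. Pooling of mice leaves their variation unmeasured.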
